A study of Verbena bonariensis with 2 samples.

Results

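In leaves of the ornamental Verbena bonariensis, 97 transcript clusters of 63021 passed a count limit and were lower in the cadmium library. They were present in both libraries and more than 4 times as abundant in the untreated library as in the cadmium library. They were chosen by their measured read counts: an estimated count of at least 100 without cadmium, a count above 0 with cadmium, an untreated CPM more than 4 times the cadmium CPM, and a mean CPM of at most 1000. CPM is a cluster's count as a share of its library's total, in parts per 1000000. The 97 clusters are called members here. The limits other than the fold were met by 17022 clusters, called eligible, so the members were 0.57% of those that could have met the rule. Because the rule used this contrast, the folds below describe the members and support nothing further.

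The untreated group was 1 library of leaves from the cultivar Finesse at about a month of age, and the cadmium group was 1 library of the same cultivar, tissue and age from plants given 350 µmol/L cadmium. The libraries held 17455521 and 16476612 estimated counts. The series text mentions plants of more than a single kind without naming them, so a difference of that sort and cadmium cannot be told apart. How long and by which route cadmium was given, and whether plants were pooled, is not given in the sources used here. With 1 library per group there was no test and no p-value. Bracketed intervals are exact at 95%: those of folds and ratios cover counting error, and those of shares of clusters are binomial and take clusters as independent. Neither kind covers the spread between plants or the uncertainty of dividing reads between similar clusters.

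Cadmium is a metal with no nutritional role in most plants. It binds thiol groups, competes with zinc, iron and calcium, and is known to damage photosynthesis, while plants bind it with glutathione-derived phytochelatins and store it in the vacuole. In a leaf transcriptome built without a genome, reads are tallied on clusters of assembled transcripts, and isoforms, alleles or gene copies that look alike share reads between clusters. The files do not pair the cluster identifiers with gene names, so no member could be linked to a pathway, and no sequence is printed because none was in the files.

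Together the members were 5.57-fold lower with cadmium (5.45 to 5.70). They took 0.327% of untreated and 0.0587% of cadmium counts. All 17022 eligible clusters together had a fold of 1.04 (1.03 to 1.04), with a median over clusters of 1.06 and quartiles of 0.90 and 1.26. The median fold of the members was 5.40, with quartiles of 4.46 and 7.36. Their median CPM was 9.45 (range 5.85 to 1194) without cadmium and 1.65 with it, where the most abundant member had 209 CPM. In counts the medians were 165 and 27.1.

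**Figure D1:**
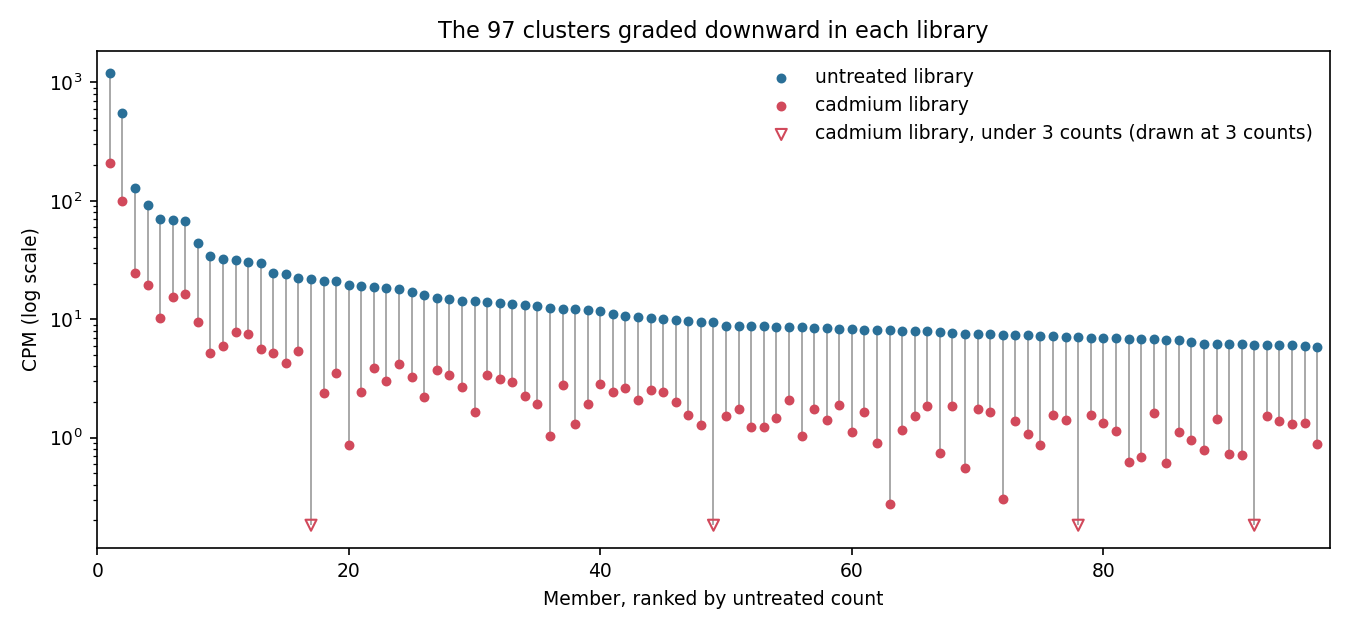
CPM (log axis) of each of the 97 members without cadmium (blue) and with cadmium (red), ranked by untreated count, with a line joining the values of a member. The first 2 members stand above 500 CPM without cadmium and most others lie between 5 and 30 CPM, while 4 members with under 3 cadmium counts are drawn as triangles at 3 counts.

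A pair of members carried more of the reads than all the others. Cluster-7663.22878 had 20843 counts (1194 CPM) without cadmium and 3450 counts (209 CPM) with it, 5.70-fold lower (5.50 to 5.91). By count it ranked 87 among all clusters without cadmium and 616 with it. Cluster-7663.23451 had 9680 counts (555 CPM) without cadmium and 1652 counts (100.3 CPM) with it, 5.53-fold lower (5.25 to 5.83), and moved from rank 190 to rank 1556. The pair held 53.5% of the members' untreated counts and 52.8% of their cadmium counts. The pooled fold of the other 95 members was 5.49 (5.32 to 5.67), so the pooled value was nearly the same without the pair. Per length the pair differed more, with a deposited FPKM (fragments per kilobase and per library size) of 1219 and 213 for the first and 232 and 41.97 for the second. Their effective lengths, meaning the length implied by count and FPKM together, were 980 and 2388 bases.

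Below this pair the untreated counts dropped quickly. The third member by untreated count had 2220 counts without cadmium and 407 with it, 5.15-fold lower (4.63 to 5.74). The fourth had 1623 and 319 counts, 4.80-fold lower (4.26 to 5.43). The fifth had 1233 and 168 counts, 6.93-fold lower (5.89 to 8.19). The fifth member had an effective length of 516 bases, so that its untreated FPKM of 137 exceeded the 117.6 of the third, which puts it next after the pair by FPKM. The sixth had 1196 and 253 counts, 4.47-fold lower (3.89 to 5.13), and the seventh 1175 and 271 counts, 4.10-fold lower (3.58 to 4.69). Their intervals reach below 4, so counting error alone does not place them clearly beyond the threshold. The eighth had 765 and 155 counts, 4.66-fold lower (3.92 to 5.57). These 8 were all in the largest component of related clusters, which is described below.

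The members ranked 9 to 15 by untreated count had between 423 and 592 untreated counts. Of these, the ninth had the highest fold, with 592 and 85.1 counts (6.56-fold, 5.23 to 8.35), and the twelfth the lowest, with 528 and 124 counts (4.01-fold, 3.30 to 4.93). The tenth, with 562 and 98.2 counts, was 5.40-fold lower (4.36 to 6.78), which is the median member by fold. The eleventh had 554 and 130 counts, 4.04-fold lower (3.32 to 4.91). The 3 that complete the group were 5.30-fold, 4.69-fold and 5.71-fold lower. In all, 40 members had at least 200 untreated counts and 57 had fewer. By FPKM, 34 members had an untreated level of at least 10 and none was under 1, while with cadmium 9 were at 10 or more, 48 were under 1 and 3 of those were listed at 0. The median FPKM was 5.83 without cadmium and 1.07 with it.

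**Figure D2:**
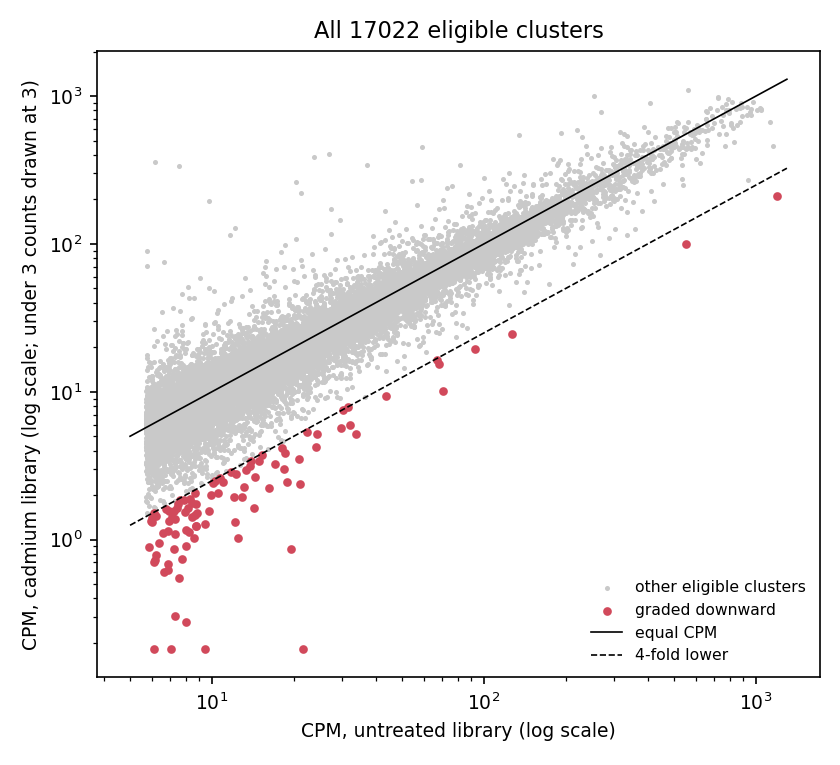
CPM in the untreated library against CPM in the cadmium library (log axes) for all 17022 eligible clusters, with the members in red below the dashed line of a 4-fold lower value and the solid line at equal CPM. Most of the members lie at the low end, and 2 stand apart above 500 untreated CPM; values under 3 cadmium counts are drawn at 3 counts.

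Most members were close to the threshold. A fold of 4 to 5 was found for 38 members, 5 to 6 for 20, 6 to 8 for 18 and 8 to 10 for 8. Beyond 10-fold there were 13 members, of which 6 lay at 10 to 20 and 3 at 20 to 50, and the other 4 had under 3 cadmium counts, so that their folds are poorly known. The exact interval lay wholly beyond 4-fold for 45 members (0.264% of the eligible clusters) and reached 4 or below for 52. It lay wholly beyond 3-fold for 79 and beyond 2-fold for all 97. The last was fixed beforehand by the rule's limits on count and fold, so it says nothing about how firm the members are. Just inside the threshold were members with folds of 4.01, 4.01, 4.04, 4.08 and 4.09, and just outside were clusters with folds of 3.99, 3.98, 3.98, 3.97 and 3.96. The lowest of those inside, with 528 and 124 counts, and the highest of those outside, with 128 and 30.2 counts (2.69 to 6.21), had overlapping intervals. For 91 eligible clusters that were not members the interval reached above 4. A threshold of 3-fold would have taken 185 clusters (1.09% of the eligible).

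The highest folds rested on very few cadmium counts. In 3 members the estimated cadmium count was above 0 but under 1, so that the fold is given as a lower bound, taken at a floor of 3 counts per library. The first of them had 165 untreated counts and 0.18 cadmium counts, at least 51.9-fold lower by this floor. The second had 124 and 0.06 counts, at least 39.0-fold lower, and the third had 106 and 0.21 counts, at least 33.5-fold lower by the same floor. The floor is a one-sided limit, and the exact two-sided intervals of these 3 members start lower, at 41.8, 31.3 and 26.7. The member with 379 untreated and 2.11 cadmium counts had a ratio of 169, whose interval ran from 49.2 to 1482. These 4 members differ from clusters at 0 by no more than a few assigned reads. Their effective lengths were 5690, 2136, 4621 and 8183 bases in that order. All but the second exceeded the upper quartile of the members, 2793 bases.

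Better measured were the 3 members at 20-fold to 50-fold and those just below. The member with 341 untreated and 14.3 cadmium counts was 22.5-fold lower (13.5 to 42.5). Another had 128 and 5 counts, 24.2-fold lower (10.1 to 75.7), and the last of the 3 had 141 and 4.53 counts, 29.3-fold lower (11.1 to 83.2). Each of these intervals stayed above 10-fold. Between 10-fold and 20-fold, the member with the most untreated counts had 217 and 16.9 counts, 12.1-fold lower (7.35 to 21.1). The other 5 in that range had between 116 and 136 untreated and between 9.05 and 12.2 cadmium counts. None of the members beyond 10-fold had more than 379 untreated counts, and the 13 members with at least 500 untreated counts had folds between 4.01 and 6.93.

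The number of members is set out here by untreated count, as a description, since the rule used both the count and the fold. With 100 to 200 untreated counts, 57 of 5357 eligible clusters were members (1.06%, 0.807 to 1.38). With 200 to 500 counts it was 27 of 5763 (0.469%, 0.309 to 0.681), and with 500 to 1000 counts 6 of 2986 (0.201%, 0.0738 to 0.437). With 1000 counts or more it was 7 of 2916 (0.240%, 0.0966 to 0.494). The share was highest in the shallowest bin. Counting error widens ratios more at low counts, and its part in this difference was not tested.

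The mirror rule, with the libraries exchanged, took 174 of 16356 eligible clusters as higher with cadmium (1.06%). In its shallowest bin, 100 to 200 cadmium counts, the share was 1.36% (1.07 to 1.71). At 1000 counts or more it was 1.15% (0.780 to 1.62), beside the 0.240% given for lower clusters. These shares also come from values that the rules used and were not tested. The median fold in that deepest bin was 5.15 for the 7 members and 9.77 for the 31 higher clusters. Over all folds, 13 members and 61 of the higher clusters were beyond 10-fold. Both rules leave out clusters at 0 in the library where they were lower. With the 76 clusters at 0 with cadmium included, 173 clusters were lower beyond 4-fold. The matching number for clusters at 0 without cadmium is not given here. These numbers therefore do not show which direction was the more common. With TMM scaling (a trimmed mean of ratios that corrects library totals) the numbers beyond 4-fold were 84 lower and 187 higher, and those beyond 10-fold were 12 and 63. Below the threshold, at 2-fold to 3-fold, the order depended on the scaling, with 462 lower and 388 higher by library totals and 417 lower and 451 higher by TMM. The higher clusters took 0.113% of untreated and 0.873% of cadmium counts.

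**Figure D3:**
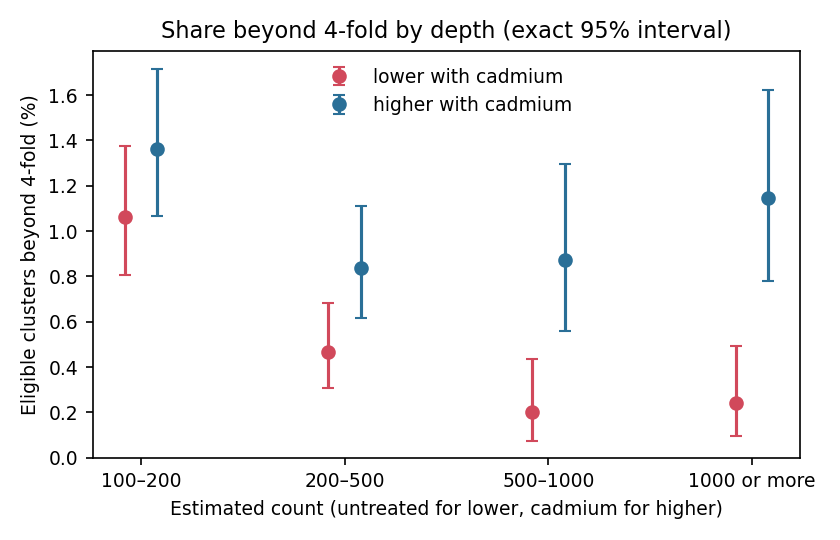
Percent of eligible clusters beyond 4-fold, with exact binomial 95% intervals over clusters taken as independent, in 4 bins of estimated count, for lower (red) and higher (blue) clusters. The red points go from 1.06% in the shallowest bin to 0.240% in the deepest, where the blue point is at 1.15%.

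**Figure D4:**
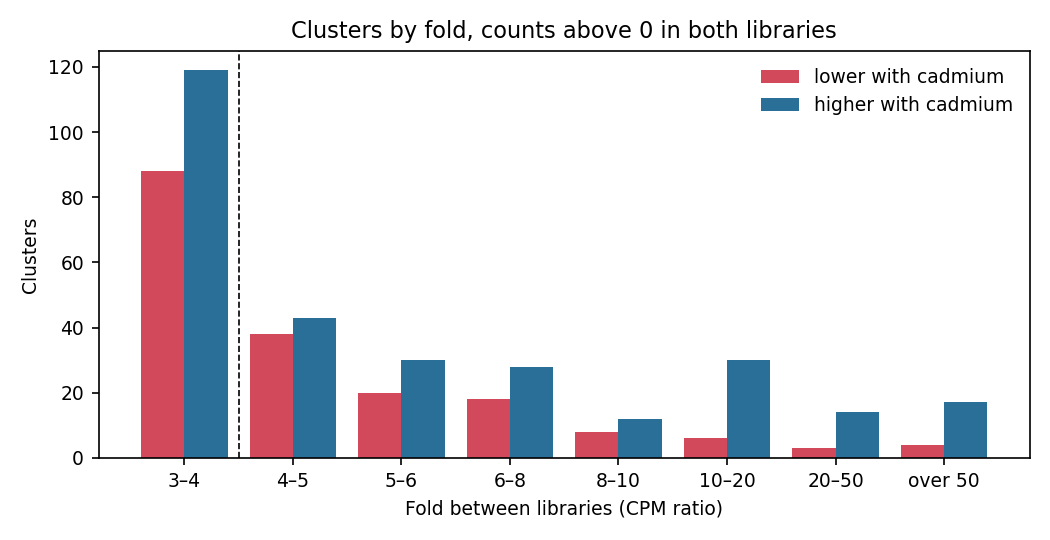
Number of clusters in each range of fold between the libraries, lower (red) and higher (blue) with cadmium, with counts above 0 in both; the dashed line marks the 4-fold threshold. In every range shown, from 3-fold upward, the blue bar is taller, with 38 against 43 clusters at 4 to 5 and 6 against 30 at 10 to 20; the last range holds ratios as estimated, which for the 4 red clusters rest on under 3 cadmium counts.

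Clusters with at least 100 untreated counts and 0 counts with cadmium numbered 76, or 0.444% of the 17098 that could have been so. They were set apart by the rule, and the members form the graded part of the same side. Their median untreated CPM was 8.67 against 9.45 for the members. They held 0.141% of untreated counts.

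Identifiers have the form Cluster-x.y, and x was taken here to mark a component of related clusters, a reading that the sources do not state. The largest component, 7663, held 45612 clusters. It held 83 of the 97 members (85.6%, 77.0 to 91.9) and 16350 of the 17022 eligible clusters (96.1%, 95.7 to 96.3). Single clusters, alone in their component, were 11 of the members (11.3%, 5.80 to 19.4) and 2.17% of the eligible clusters (1.95 to 2.40). Members were less abundant than eligible clusters, whose median untreated CPM was 18.1, and single clusters were scarce at high abundance. Within bins of untreated count, which does not include the cadmium value, the largest component held 80.7% of 57 members and 90.7% of 5357 eligible clusters at 100 to 200 counts, and 88.9% of 27 against 97.1% of 5763 at 200 to 500 counts. At 500 counts or more, all 13 members were in the largest component, as were 99.9% of 5902 eligible clusters. Of the 76 clusters at 0 with cadmium, 41 (53.9%, 42.1 to 65.5) were in the largest component and 24 (31.6%, 21.4 to 43.3) were single.

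The single clusters among the members had moderate folds. Of the 11, 9 were between 4.10-fold and 5.19-fold lower. The most abundant of them had 242 untreated and 51.6 cadmium counts (4.42-fold, 3.24 to 6.05), and the median untreated count of the 11 was 131. The exceptions were the member with 128 and 5 counts and the member with 106 and 0.21 counts that were described among the highest folds. Pooled, the 11 were 5.03-fold lower (4.46 to 5.69), against 5.58-fold (5.46 to 5.70) for the 83 members of the largest component. The median fold was 4.41 for the single clusters and 5.70 for the members of the largest component.

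By this reading of the identifiers, just 3 members had a few related clusters each. In 2 of these components the lower member stood beside a cluster that was higher with cadmium. How often this holds for the 303 eligible clusters of such small components was not tested, so these are single cases. In component 14072, of 2 clusters, the member had 141 counts without and 14.8 counts with cadmium (8.95-fold lower, 5.20 to 16.3). The other cluster had 113 and 213 counts, a ratio of untreated to cadmium CPM of 0.50 (0.40 to 0.63). Their effective lengths were 1879 and 1845 bases, and the sum of the pair had 253 and 228 counts, a ratio of 1.05 (0.87 to 1.26). The component as a whole thus did not differ beyond counting error, while its clusters differed in opposite directions.

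Component 136, of 10 clusters, gave a similar picture. Its member had 165 counts without and 21.0 counts with cadmium (7.42-fold lower, 4.69 to 12.3) and an effective length of 1451 bases. A related cluster had 4.64 counts without and 94.1 counts with cadmium, a ratio of 0.047 (0.016 to 0.12), and an effective length of 1564 bases. A further cluster, with 47.5 and 55.9 counts, had a ratio of 0.80 (0.53 to 1.19). Another 5 clusters were at 0 without cadmium and had between 5 and 25 counts with it. Summed, component 136 had 218 and 249 counts, a ratio of 0.83 (0.69 to 0.995), which is slightly below 1, and without the member 53.1 and 228 counts, a ratio of 0.22 (0.16 to 0.30).

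Component 3366, of 3 clusters, went one way. Its member had 140 and 19.2 counts (6.87-fold lower, 4.29 to 11.9), a related cluster had 39.3 and 16.8 counts (2.21-fold lower, 1.20 to 4.08), and the remaining cluster had 2 and 0 counts. The sum was 4.75-fold lower (3.30 to 6.99). Estimated counts divide shared reads between similar clusters, so the values within a component are not independent, and whether reads were assigned differently in the libraries was not tested. For members of the largest component no such sum was informative, since it held 16350 eligible clusters.

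**Figure D5:**
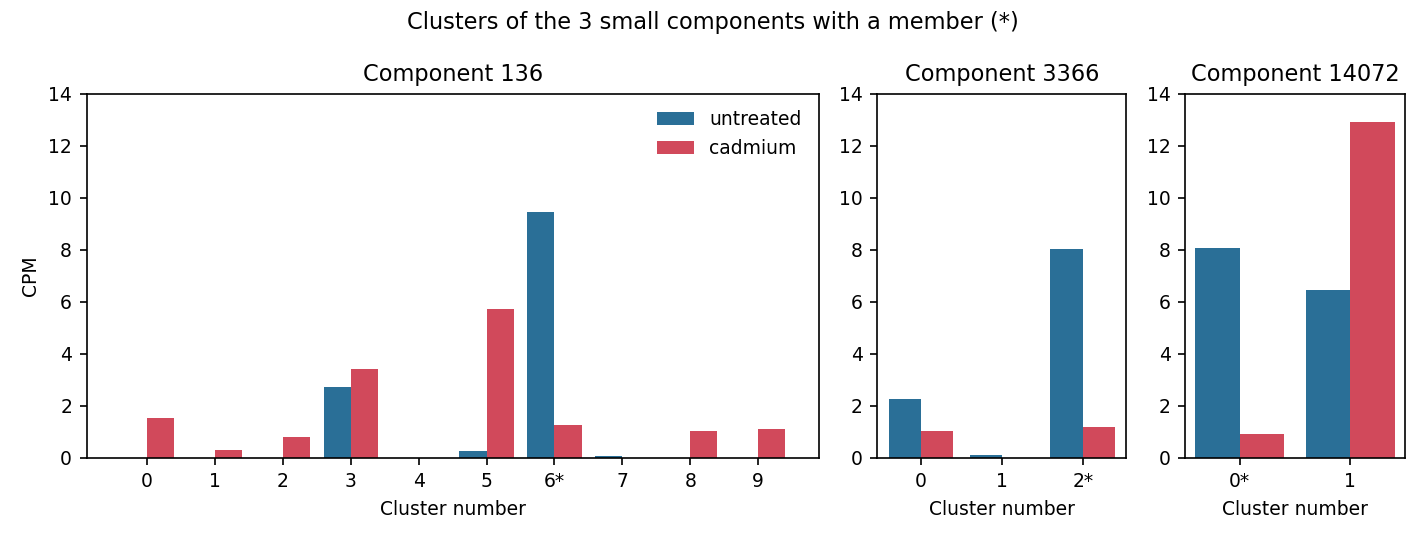
CPM of every cluster of components 136, 3366 and 14072 in the untreated (blue) and cadmium (red) libraries; an asterisk marks the member. Each member is tall in blue alone, while in components 136 and 14072 another cluster is taller in red, and in component 3366 no cluster is.

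Members more often had estimated counts that were not whole than eligible clusters did. A count more than 0.005 away from a whole number in at least 1 library, which an estimated count shows when reads are divided between clusters, was found for 77 of 97 members (79.4%, 70.0 to 86.9) and for 59.5% of eligible clusters (58.8 to 60.3). At 100 to 200 untreated counts it was 82.5% of the members and 72.4% of eligible clusters, at 200 to 500 counts 85.2% and 62.2%, and at 500 counts or more 53.8% of 13 members and 45.3%. The rule enters these shares, since the 3 members with under 1 cadmium count could pass only with a count that was not whole. Of the 76 clusters at 0 with cadmium, which the rule left out, 51.3% had counts that were not whole. The 20 members with whole counts in both libraries are those whose values show no divided read. They included both clusters named above and were pooled 5.61-fold lower (5.46 to 5.76), with a median fold of 5.17. The named pair held most of the untreated counts of these 20 and alone was pooled 5.65-fold lower (5.48 to 5.82). The other 77 were pooled 5.50-fold lower (5.30 to 5.71), with a median of 5.78. The intervals of the pooled folds overlapped. The 20 had a median effective length of 1016 bases and the 77 one of 1888 bases.

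The median effective length of the members was 1709 bases, with quartiles of 1055 and 2793. The eligible clusters had a median of 1491 bases, with quartiles of 936 and 2236. At 100 to 200 untreated counts the medians were 1888 and 1370 bases, and at 200 to 500 counts 1709 and 1486 bases. At 500 counts or more the order was reversed, with 1081 bases over 13 members and 1616 over eligible clusters. Lengths over 5000 bases were found for 8 members (8.25%) and for 2.17% of eligible clusters. The longest member, of 9202 bases, had 366 and 57.9 counts (5.98-fold lower, 4.51 to 8.0). All 8 had divided reads, with a median untreated FPKM of 1.61. The shortest member, of 315 bases, had 106 and 25.1 counts (4.01-fold lower, 2.57 to 6.46). Lengths under 500 bases were found for 6 members (6.19%) and for 7.73% of eligible clusters. These 6 members had a median untreated FPKM of 21.7. Across the members, fold and effective length had a Spearman rho of 0.16, and fold and untreated CPM one of -0.16. These are descriptions over 97 clusters that share a pair of libraries and a threshold on fold and count.

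Clusters with neighbouring numbers in the largest component were mostly alike in both libraries. Of the 84 eligible clusters whose number was directly next to a member's, none was a member and 6 were more than 2-fold lower with cadmium (7.14%, 2.67 to 14.9), against 3.63% (3.35 to 3.93) in the component and 3.8% of all eligible clusters. Another 4 were more than 2-fold higher (4.76%, 1.31 to 11.7), against 1.58% of all eligible clusters. Eligible clusters needed at least 100 untreated counts, a limit that leaves out clusters with few untreated and more cadmium counts. The lower and higher shares therefore cannot be set against each other. The 84 clusters had a median ratio of untreated to cadmium CPM of 1.09 against 1.06 in the component. The intervals of the lower share include the component's value, so a difference was not detectable with 84 clusters.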

How the data were processed

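RNA of leaves was sequenced by Illumina methods, per the labels' protocols, in 1 untreated and 1 cadmium library. The deposited estimated counts carry 2 decimals and are not normalized, and the deposited FPKM values were scaled by the authors for length and library size, per the file headers. Bowtie2 2.0.6 and TopHat2 2.0.9 appear, without a role, in the submitters' processing notes. For the assembler, the counting tool and strandedness, the information was not given in the sources used here. CPM used the sum of each file's estimated counts (17455521 and 16476612; 1 count was 0.0573 and 0.0607 CPM). Exact (Clopper-Pearson, conditional binomial) 95% intervals came from scipy 1.17.1 on counts rounded to whole numbers. They cover counting error only and leave out the uncertainty of dividing reads between similar clusters. No molecular identifiers are described. Effective length is count divided by FPKM and library total; in the 49 members with a cadmium FPKM of at least 1 it differed by at most 5% between libraries. With 1 library per group no residual degrees of freedom exist, and the quasi-likelihood test of edgeR was not possible. As alternatives, TMM factors were computed in edgeR 4.0.16 and size factors in DESeq2 1.42.0 under R 4.3.3. The rule and intervals were tested on simulated whole counts. Folds were planted only in clusters more abundant than most members. Divided reads, and recovery of planted folds at the lowest abundances, were not simulated.

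The members, the comparisons and the alternatives were chosen with earlier results of these data known. By identifier the text names the 2 members with the most untreated counts. It describes without identifier those to rank 15, the highest folds, the 5 on each side of the threshold, the extremes of length and the members of small components. Bins of untreated count, added after seeing the data, are printed in place of the planned bins of mean CPM, because the cadmium value that chose the members enters the mean.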

Additional observations from a re-analysis of the deposited data

How the results depend on the processing

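No paired analysis was possible because a single library stood for either group, and none could be left out. Of 40 alternative values, 25 stayed within 1.5 times a count or within the interval of a value and 15 moved further. None turned its direction, but this was nearly fixed beforehand. Numbers, shares and lengths have no direction, and the folds are of members chosen for a fold above 4. The number of members, 97, was 84 with TMM, 87 with DESeq2 size factors and 98 with FPKM, and all 84 and 87 were members. It was 210 with at least 50 untreated counts, 40 with at least 200, 1458 with no minimum, 185 with a fold above 3, 59 with a fold above 5, 45 with the interval wholly beyond 4-fold, and 173 with clusters at 0 with cadmium included. Summing components outside the largest, which leaves that component out, gave 13, against the 14 members there before summing. Whole counts alone, added after seeing the data, gave 20. These follow from how many clusters can pass. The pooled fold of 5.57 was 5.33 with TMM, 5.37 with DESeq2 size factors and 5.97 for members with the interval wholly beyond 4-fold. The fold of Cluster-7663.22878 was 5.46 and 5.50 with those scalings, just under its counting interval. The share of members in the largest component was 92.5% with at least 200 untreated counts. The median fold stayed between 5.17 and 5.42. Depth limits the members with about 100 counts, whose intervals span more than 2-fold, and the spread between plants is unknown.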

Other observations

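Within the largest component, 4 pairs of members had numbers at most 10 apart, where the median gap between members next in order was 398. How many such pairs other eligible clusters would give was not tested. In the first pair, 3 numbers apart, the members had 325 and 63.3 counts (4.85-fold lower, 3.71 to 6.48) and 390 and 88.5 counts (4.16-fold lower, 3.31 to 5.33), with effective lengths of 1684 and 5666 bases. In the second, 4 apart, they had 260 and 56.1 counts (4.38-fold, 3.27 to 5.96) and 133 and 30.3 counts (4.14-fold, 2.80 to 6.44). The intervals overlapped within each of these pairs, though all members passed the same threshold, which draws their folds together. In the third, 8 apart, they had 1623 and 319 counts (4.80-fold, 4.26 to 5.43) and 121 and 18.8 counts (6.07-fold, 3.69 to 10.3). In the fourth, 3 apart, they had 592 and 85.1 counts (6.56-fold, 5.23 to 8.35) and 528 and 124 counts (4.01-fold, 3.30 to 4.93), and here the intervals did not overlap. Whether close numbers mean related sequences is not stated in the sources used here.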
